A study of Mus musculus with 9 samples.

Results

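Receptors of the C-type lectin and Siglec families that are carried by myeloid cells, together with the myeloid adaptor Pram1, were described in the lungs of mice with ventilator-induced lung injury (VILI). The members were 8 genes given by name, namely the C-type lectin receptors Clec4d, Clec4e, Clec4n, Clec5a and Clec7a, the sialic acid receptors Siglece and Siglec1, and Pram1. Rows were found for 7 of the 8 among 27203 genes and assembled loci, which together held 60108 transcripts. Clec7a had no row under its GENCODE identifier and was not analysed here. Whole-lung total RNA, depleted of ribosomal RNA, was sequenced from male C57BL/6 mice of 6 to 8 weeks, with 1 library for each of 9 mice and 3 mice per group. Control mice were anaesthetised with ketamine and xylazine and intubated but were not ventilated. VILI mice spent 4 hours on the ventilator with breaths of 20 ml/kg, and their lungs were taken 0 hours (VILI 0 hours group) or 6 hours (VILI 6 hours group) after ventilation. The study's methods describe maintained ketamine and xylazine and the muscle relaxant pancuronium with ventilation. They do not say whether control mice received these. Ventilation, the time on the ventilator and any drugs or handling that went with it thus cannot be told apart in the comparisons with control.

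C-type lectin receptors such as Clec4d (also called MCL) and Clec4e (Mincle) sit on the surface of myeloid cells and recognise glycolipids of microbes or material released by dead cells. Most of them pass the signal through a partner chain with an activating motif to the kinase Syk and the Card9 complex, which turns on cytokine genes, whereas Siglece reads sialic acids as a mark of self and carries inhibitory motifs that recruit phosphatases. Siglec1 (sialoadhesin) is a macrophage receptor without such a motif, and Pram1 is an adaptor protein of granulocytes that works next to integrins and binds partners of the Slp76 and Skap families.

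Values are FPKM (fragments per kilobase of transcript and per unit of sequencing depth), summed over the transcripts of a gene. Differences are log2 fold changes of FPKM + 0.1, so the fold of a gene with low values is understated. They were fitted by limma over the 19378 genes with a mean of at least 0.1 FPKM. An unadjusted P under 0.05 was the threshold for a call, and the Benjamini-Hochberg adjusted p over all of these genes is given beside most calls of named genes. Both comparisons with control share the same 3 control libraries, so their results are set side by side and are not independent of each other. VILI 6 hours replicate 1 stood apart from the rest of its group, since without it the genes called over the whole table rose from 3952 to 7526 at 6 hours. FPKM column sums lay between 366360 and 388459 and do not give the fragments behind a value, so no counting error is attached to a low value. The mapped read totals given with the study were not used here.

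Clec4d, Clec4e, Siglece and Pram1 rose right after ventilation and were still high 6 hours later, Clec5a rose at 6 hours, and no change was called for Clec4n or Siglec1. At 0 hours 4 of 7 members passed the threshold, all upwards, where 16.2% of all genes tested passed, 6.81% upwards and 9.35% downwards. At 6 hours 5 of 7 passed, again all upwards, where 20.4% of all genes passed, 8.17% upwards and 12.2% downwards. Between VILI 6 hours and VILI 0 hours 0 of 7 members passed by limma at an unadjusted P under 0.05, against 10.0% of all genes, 5.06% upwards and 4.94% downwards. All libraries of the group lay above all controls for the same 4 and 5 members, against 12.0% of all genes at 0 hours and 9.64% at 6 hours, and below them for 0 members, against 21.6% and 15.0%. Between the VILI groups 0 members were without overlap, against 6.25% of all genes with the later group higher and 6.28% with it lower. The median log2 fold change over the 7 members was 1.98 at 0 hours and 2.51 at 6 hours, whereas over all genes it was -0.07 and -0.09. After adjustment over all genes, 2 members stayed under 0.05 at 0 hours (0.284% of all genes did) and 3 at 6 hours (0.702%). These adjusted counts depended on single libraries. At 0 hours the count was 0 without any of the controls, VILI 0 hours replicate 2 or 3 or VILI 6 hours replicate 2, and 4 without VILI 6 hours replicate 1. At 6 hours it was 0 without any of the controls or VILI 6 hours replicate 2 or 3, and 5 without VILI 6 hours replicate 1. By unadjusted P, 4 or 5 members were called at 0 hours and 5 at 6 hours whichever library was left out.

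**Figure D1:**
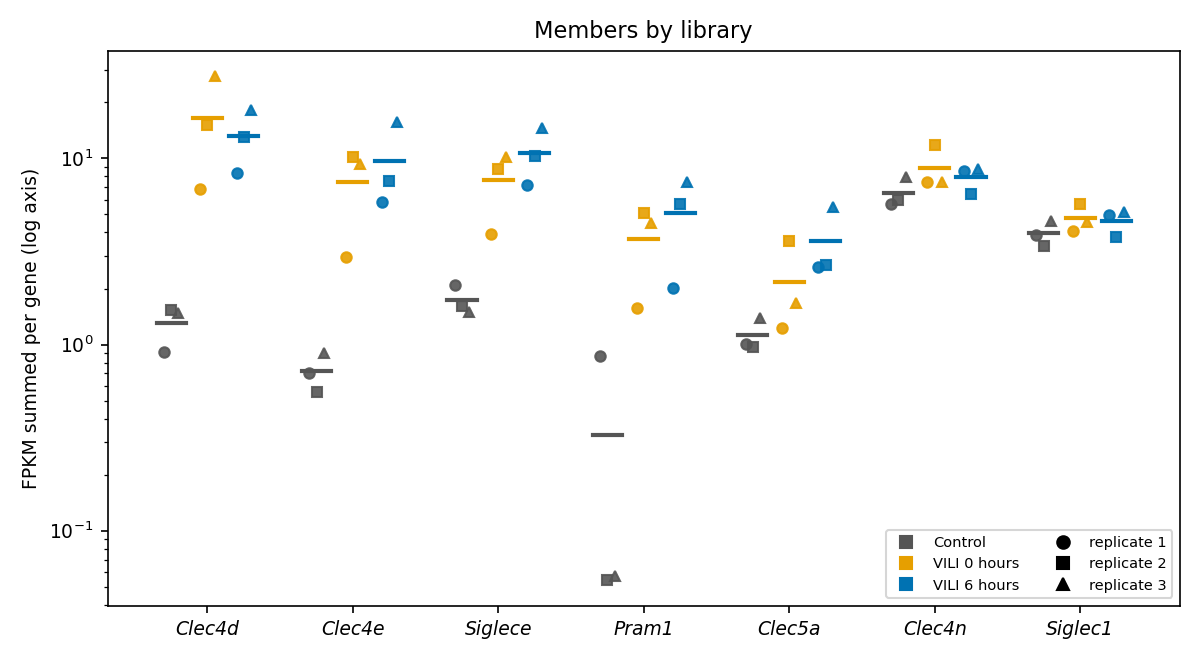
Summed FPKM of each member in every library, on a log axis. Colours mark the 3 groups, symbols the replicate number, and horizontal bars the mean of 3 libraries. For Clec4d, Clec4e, Siglece and Pram1 all 6 libraries of ventilated mice lie above all 3 controls, while Clec4n and Siglec1 overlap in every comparison.

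Clec4d, at chr6:123262111-123275265 on the plus strand (GRCm38), was the member with the highest mean in both VILI groups. The control libraries held 0.916, 1.53 and 1.48 FPKM, the VILI 0 hours libraries 6.82, 15.1 and 27.7, and the VILI 6 hours libraries 8.33, 13.0 and 18.2. Every ventilated library was above every control, and the spread among the 3 libraries of the VILI 0 hours group was wider than the step between the VILI groups. The rise was 3.38 (log2, SE 0.47, limma adjusted p = 0.0344) at 0 hours and 3.2 (adjusted p = 0.0257) at 6 hours, and the ratios of the group means were 12.6 and 10.1. With a pseudocount of 1 the rises were 2.74 and 2.57. VILI 6 hours minus VILI 0 hours was -0.18 with a 95% interval from -1.23 to 0.88. Whole lung was sequenced, so more cells that carry a receptor and more of its RNA per cell cannot be told apart here or in any result that follows.

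Clec4e lies 27.8 kb from Clec4d, start to start, at chr6:123281789-123289870 on the minus strand, and codes for the receptor that pairs with it. Control libraries held 0.707, 0.560 and 0.900 FPKM, VILI 0 hours 2.96, 10.2 and 9.38, and VILI 6 hours 5.82, 7.58 and 15.6. All 6 ventilated libraries were above the controls, with replicate 1 lowest in each VILI group, as it was for Clec4d. The log2 fold change was 3.04 at 0 hours (limma adjusted p = 0.0456) and 3.46 at 6 hours (adjusted p = 0.0248), or 2.17 and 2.53 with a pseudocount of 1. The difference between the VILI groups was 0.42 (95% interval -0.68 to 1.52). Per library, Clec4d over Clec4e was 1.29, 2.73 and 1.64 in control, 2.31, 1.48 and 2.96 at 0 hours, and 1.43, 1.72 and 1.17 at 6 hours. This ratio did not separate the groups, with exact permutation p = 0.5 for 0 hours vs control and p = 0.6 for 6 hours vs control, although 3 libraries against 3 cannot give a p below 0.1.

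Siglece, the inhibitory member, at chr7:43651070-43660161 on the minus strand, rose as well. It stood at 2.099, 1.60 and 1.504 FPKM in control, at 3.93, 8.78 and 10.1 in VILI 0 hours, and at 7.19, 10.3 and 14.6 in VILI 6 hours. The groups of ventilated mice did not overlap with control, and in each of them replicate 1 was lowest and replicate 3 highest. The rise was 1.98 (log2, SE 0.36, limma adjusted p = 0.0627) at 0 hours and 2.51 (adjusted p = 0.0257) at 6 hours, and the ratios of the group means to control were 4.39 and 6.16. The later group was higher than the earlier by 0.53, with an interval (-0.28 to 1.34) that includes 0.

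Pram1, at chr17:33638056-33645706 on the plus strand, was the member with the lowest mean in control. Its control values were 0.872, 0.0541 and 0.0574 FPKM, so that control replicate 1 stood far above the other 2. VILI 0 hours libraries held 1.56, 5.09 and 4.47 FPKM and VILI 6 hours libraries 2.025, 5.72 and 7.51, all above the highest control. The log2 fold change was 3.57 (SE 0.78) at 0 hours and 3.99 at 6 hours, with limma adjusted p of 0.0834 and 0.0587, and without control replicate 1 these rises became 4.45 and 4.87. With values this low they also moved with the pseudocount, to 1.79 and 2.12 with 1 and to 4.4 and 4.83 with 0.01 in place of 0.1, and they were called in each of these fits. The difference between the VILI groups was 0.42 (95% interval -1.33 to 2.16). An annotated transcript of the same strand, Gm20507, overlaps Pram1, and FPKM values do not show how reads of the shared part were assigned. Gm20507 held 1.05, 1.045 and 1.20 FPKM in control, 1.69, 0.525 and 0.565 at 0 hours and 2.53, 0.839 and 0.466 at 6 hours. Replicate 1 was thus highest for Gm20507 and lowest for Pram1 in both VILI groups, while in control the library with the highest Pram1 was not the one with the highest Gm20507. The sum of both genes was 1.93, 1.1 and 1.26 FPKM in control, 3.25, 5.62 and 5.04 at 0 hours and 4.56, 6.56 and 7.98 at 6 hours, all ventilated libraries above all controls. The log2 rise of the sum was 1.63 and 2.08 (limma adjusted p = 0.0622 and 0.0238), against 3.57 and 3.99 for Pram1 alone. How reads were split between the genes was not tested.

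**Figure D2:**
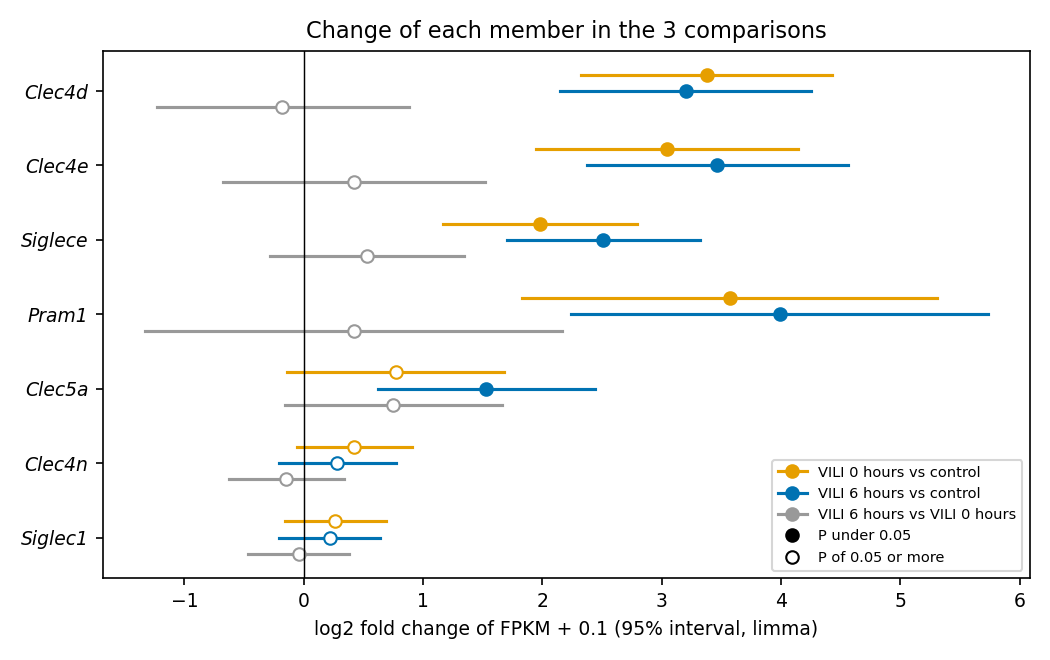
Log2 fold change of FPKM + 0.1 for each member, with the 95% interval from limma as a horizontal line. Orange is VILI 0 hours vs control, blue is VILI 6 hours vs control and grey is VILI 6 hours vs VILI 0 hours, and filled points have an unadjusted P under 0.05. The 4 members at the top are filled in both comparisons with control, Clec5a in the later one only, and every grey interval includes 0.

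Clec5a (MDL-1), a C-type lectin of monocytes and neutrophils that signals through the partner chains Tyrobp and Hcst, lies at chr6:40574894-40585821 on the minus strand. Control libraries held 1.005, 0.967 and 1.39 FPKM, VILI 0 hours 1.22, 3.61 and 1.68, and VILI 6 hours 2.61, 2.68 and 5.47. At 0 hours its lowest library was below the highest control, while at 6 hours all 3 were above control. The log2 difference from control was 0.77 at 0 hours (limma adjusted p = 0.386) and 1.53 at 6 hours (adjusted p = 0.107). That the change was called at 6 hours only does not show that the times differed, since the step between them was 0.75 (95% interval -0.16 to 1.66, limma adjusted p = 0.577). Without VILI 0 hours replicate 2, the highest library of its group, the step became 1.18 and passed the unadjusted threshold (limma adjusted p = 0.486). It was 0.44 without VILI 0 hours replicate 1 and 0.41 without VILI 6 hours replicate 3, and did not pass in either fit. The 0 hours value likewise moved with single libraries, passing at 1.09 without VILI 0 hours replicate 1 and not passing at 0.35 without VILI 0 hours replicate 2.

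Clec4n (Dectin-2), which recognises mannan-type sugars and signals through Fcer1g, lies 32.3 kb from Clec4d at chr6:123229843-123247021. It held 5.66, 5.99 and 7.96 FPKM in control, 7.48, 11.8 and 7.50 at 0 hours, and 8.56, 6.43 and 8.80 at 6 hours, with overlap between all groups. The differences from control were 0.42 (95% interval -0.06 to 0.91) and 0.28 (-0.21 to 0.77), with limma adjusted p of 0.374 and 0.479. At 6 hours 1 of its 4 transcripts held 3.61 FPKM in replicate 3 and was at 0 in the other 8 libraries, and with the highest transcript taken for each gene that difference was -0.01. At 0 hours it passed the threshold without control replicate 3 (0.57) and when each library was centred on its median over genes (0.54), whereas without VILI 0 hours replicate 2 it was 0.21 and did not pass. That centring moved the median of all genes from -0.07 to 0.05 at 0 hours and from -0.09 to 0.04 at 6 hours. It changed the split of called genes from 1319 up and 1811 down to 1944 up and 1232 down at 0 hours, and from 1583 up and 2369 down to 2270 up and 1640 down at 6 hours. The rises of Clec4d, Clec4e, Siglece and Pram1 were called under it too.

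Siglec1, the macrophage sialoadhesin at chr2:131069220-131086765, varied least. Its libraries held 3.87, 3.39 and 4.62 FPKM in control, 4.09, 5.71 and 4.54 at 0 hours, and 4.94, 3.78 and 5.16 at 6 hours. The groups overlapped, and the differences of 0.26 (95% interval -0.16 to 0.69) and 0.22 (-0.21 to 0.64) from control had limma adjusted p of 0.534 and 0.524. Both intervals end below the rise of Siglece at the same time.

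The order of the members by level changed with ventilation. In control lungs Clec4n was highest (6.54 ± 1.24 FPKM, SD, n = 3), followed by Siglec1 (3.96 ± 0.621), and neither overlapped with the member below it. Siglece (1.73 ± 0.319), Clec4d (1.31 ± 0.341) and Clec5a (1.12 ± 0.231) came next and overlapped as neighbours, and Clec4e (0.722 ± 0.17) and Pram1 (0.328 ± 0.471) were lowest. At 0 hours the order was Clec4d (16.5 ± 10.5), Clec4n (8.91 ± 2.47), Siglece (7.62 ± 3.27), Clec4e (7.51 ± 3.96), Siglec1 (4.78 ± 0.837), Pram1 (3.71 ± 1.88) and Clec5a (2.17 ± 1.27). At 6 hours it was Clec4d (13.2 ± 4.96), Siglece (10.7 ± 3.72), Clec4e (9.67 ± 5.22), Clec4n (7.93 ± 1.31), Pram1 (5.09 ± 2.8), Siglec1 (4.63 ± 0.74) and Clec5a (3.59 ± 1.63). In both VILI groups every neighbour in the order overlapped with the next. Members further apart in the order did not always overlap, since every library of Clec4d and of Clec4n was above every library of Siglec1 and of Clec5a in both VILI groups.

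Ratios within a library show the same shift without any scaling between libraries. Clec4d over Clec4n was 0.162, 0.255 and 0.186 in control, 0.912, 1.28 and 3.70 at 0 hours, and 0.973, 2.02 and 2.07 at 6 hours. Siglece over Siglec1 was 0.542, 0.472 and 0.325 in control, 0.961, 1.54 and 2.24 at 0 hours, and 1.46, 2.71 and 2.83 at 6 hours. For either ratio all ventilated libraries were above all controls, with exact permutation p = 0.1, the smallest that 3 against 3 can give. The log2 ratio rose by 2.95 and 2.92 for the lectins and by 1.72 and 2.29 for the Siglecs. Clec5a over Clec4n was 0.178, 0.161 and 0.174 in control and 0.305, 0.416 and 0.622 at 6 hours, where the groups did not overlap, and 0.164, 0.307 and 0.224 at 0 hours, where they did.

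Promoters are shown for the 4 members that rose at both times, because these genes moved together and a reader can compare the bases before their start sites. Each line gives the 250 bases upstream of the RefSeq start (GRCm38.p6), read 5′ to 3′ on the strand of the gene, and capitals mark matches on either strand to GAGGAA, the core bound by PU.1, or to TTNCNNAA, a loose form of the C/EBP site. The windows are chr6:123261857-123262106 (plus strand) for Clec4d, chr6:123289872-123290121 (minus) for Clec4e, chr7:43660162-43660411 (minus) for Siglece and chr17:33637806-33638055 (plus) for Pram1.
Clec4d: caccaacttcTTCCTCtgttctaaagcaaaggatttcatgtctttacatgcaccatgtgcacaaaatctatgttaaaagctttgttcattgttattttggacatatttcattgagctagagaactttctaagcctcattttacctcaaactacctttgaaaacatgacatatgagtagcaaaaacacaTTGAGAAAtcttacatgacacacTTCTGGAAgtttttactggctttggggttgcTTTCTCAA
Clec4e: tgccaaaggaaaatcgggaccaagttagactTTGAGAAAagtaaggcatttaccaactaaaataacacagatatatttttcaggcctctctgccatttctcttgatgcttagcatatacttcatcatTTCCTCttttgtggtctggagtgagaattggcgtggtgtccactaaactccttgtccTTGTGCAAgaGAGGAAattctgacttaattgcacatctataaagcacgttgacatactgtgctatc
Siglece: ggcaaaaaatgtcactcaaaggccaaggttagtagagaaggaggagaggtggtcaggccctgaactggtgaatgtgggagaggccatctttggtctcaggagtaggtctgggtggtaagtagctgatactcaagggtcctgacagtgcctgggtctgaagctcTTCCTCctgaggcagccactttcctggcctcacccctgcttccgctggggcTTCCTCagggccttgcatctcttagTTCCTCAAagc
Pram1: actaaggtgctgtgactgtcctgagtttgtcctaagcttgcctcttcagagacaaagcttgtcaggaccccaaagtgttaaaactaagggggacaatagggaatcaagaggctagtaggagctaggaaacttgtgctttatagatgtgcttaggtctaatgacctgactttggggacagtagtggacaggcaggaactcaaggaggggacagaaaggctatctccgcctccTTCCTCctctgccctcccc

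All 4 windows held GAGGAA or its complement, which 23.3% of 32851 promoter windows of the same length held. Clec4d had 1 match, Clec4e 2, Siglece 3 and Pram1 1, and the closest to a start site was the last of Siglece, 11 to 6 bases before it. The looser TTNCNNAA, found in 36.8% of all windows, matched 3 times in Clec4d, 2 times in Clec4e, 1 time in Siglece (where it overlaps the last PU.1 match) and not in Pram1. None of the 4 windows held the AP-1 letters TGANTCA (6.75% of all windows), the STAT letters TTCNNNGAA (7.02%) or the NF-kB pattern searched (1.41%). That pattern is a single fixed form of the NF-kB site. Other forms were not searched, so their absence is not shown. GC content ran from 35.2% for Clec4d and 39.6% for Clec4e to 55.2% for Siglece. A match is a description of these letters, and binding of any factor was not measured.

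Among genes near the members, some neighbours rose, of the same family or not, and others were not called. Within 250 kb of the start of Clec4d, 4 other coding genes were tested, all C-type lectins, and Clec4e was the only one called at either time. Clec4b1, 212.1 kb away, differed from control by 0.65 at 0 hours and 0.23 at 6 hours, and Clec4a2, 155.7 kb away, by 0.59 at both times. The window around Clec4n reached further to Clec4a4, 239.5 kb away, which rose by 0.98 at 6 hours (limma adjusted p = 0.232) and differed by 0.54 at 0 hours. Around Clec5a 5 coding genes were tested, of which 1 rose and 0 fell at 0 hours and 1 rose and 2 fell at 6 hours. The one that rose was Mgam, a maltase 43.0 kb away, by 1.26 and 1.72 (adjusted p = 0.288 and 0.14). Around Siglece 14 coding genes were tested, of which 2 rose and 0 fell at 0 hours and 3 rose and 1 fell at 6 hours. The largest of these changes was that of Cd33, another Siglec 115.7 kb away, with 2.4 and 2.09 (limma adjusted p = 0.0414 and 0.0431). Around Siglec1 0 of 13 coding genes rose by limma at an unadjusted P under 0.05 at either time, and 1 fell at 6 hours. Around Pram1 3 of 12 rose and 1 fell at 0 hours, and 0 rose and 2 fell at 6 hours. Among them Angptl4, a secreted inhibitor of lipoprotein lipase 143.8 kb away, rose by 3.09 at 0 hours (limma adjusted p = 0.141) and differed by 1.89 at 6 hours.

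**Figure D3:**
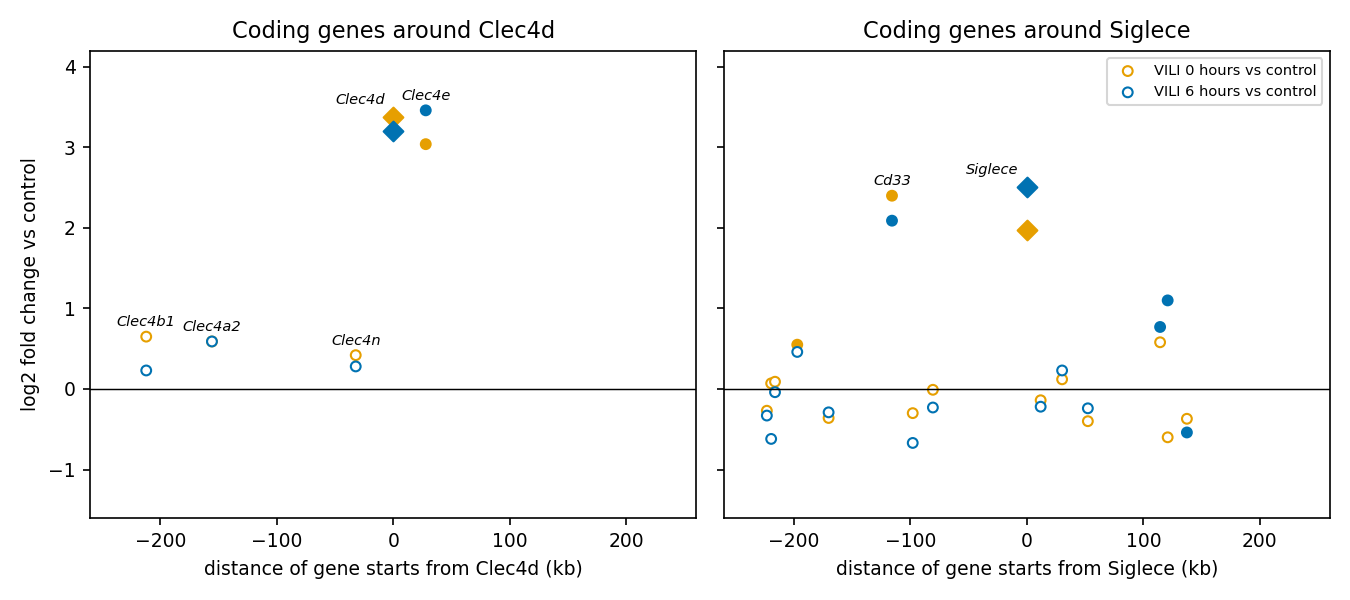
Log2 fold change of coding genes within 250 kb of the start of Clec4d (left) and Siglece (right), against the distance between gene starts in kb. Orange is VILI 0 hours vs control and blue VILI 6 hours vs control, diamonds are Clec4d and Siglece themselves, and filled symbols have an unadjusted P under 0.05. Clec4e and Cd33 are the filled neighbours with changes above 2, and the 2 points of Clec4a2 at 0.59 lie on top of each other.

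The other receptors of these families, taken as whole lists, had medians nearer to 0 than the members, a difference that was not tested. Members and lists were chosen with earlier results of these data known, so the difference is a description only. Of 18 further C-type lectin receptors 1 rose and 0 fell at 0 hours and 2 rose and 4 fell at 6 hours, with a median log2 fold change of 0.15 and 0.09. Clec4a1, a myeloid relative of Clec4n, rose by 0.92 at 6 hours (limma adjusted p = 0.221). Clec14a, a receptor of endothelial cells, fell by 0.73 at 6 hours (adjusted p = 0.0751). Clec2d, the ligand of an inhibitory receptor of natural killer cells, fell by 0.78 at 6 hours (adjusted p = 0.104). Cd207 (langerin), a dendritic cell lectin that was listed at 0 in VILI 6 hours replicate 1, fell by 1.46 at 6 hours (adjusted p = 0.222).

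Of 7 other Siglecs 6 were tested, and the direction depended on the gene. At 0 hours 2 rose and 0 fell, and at 6 hours 1 rose and 3 fell, with a median of -0.2 and -0.59. Cd33, a Siglec of myeloid cells, stood at 4.13, 4.401 and 4.265 FPKM in control, at 15.9, 22.7 and 33.4 at 0 hours, and at 9.83, 27.0 and 24.0 at 6 hours. No ventilated library of Cd33 overlapped with control, as for Siglece. Siglecf, which is on the alveolar macrophage list too, rose by 0.98 at 0 hours (limma adjusted p = 0.0627) and differed by 0.33 at 6 hours. For Siglecf, VILI 6 hours minus VILI 0 hours was -0.65 (adjusted p = 0.287). The 3 that fell at 6 hours were Cd22 (-0.97, limma adjusted p = 0.191) and Siglecg (-1.12, adjusted p = 0.137), the Siglecs of B cells, and Siglech (-1.16, adjusted p = 0.235), a marker of plasmacytoid dendritic cells. Of 5 B cell markers, led by Cd79b and Cd79a, 1 fell at 0 hours and 3 fell at 6 hours, their summed level being 44.5 to 59.8 FPKM in control, 19.1 to 60.7 at 0 hours and 12.5 to 37.5 at 6 hours, and the part of this in the Siglec values was not tested.

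Downstream of the activating receptors, 4 of 17 signalling genes rose at 0 hours and 7 at 6 hours, and 0 fell, with a median of -0.02 and 0.47. Fcer1g, the partner chain of Clec4d, Clec4e and Clec4n, held 26.7 to 27.9 FPKM in control, 35.6 to 51.1 at 0 hours and 47.7 to 87.0 at 6 hours. It rose by 0.57 and then 1.15 (limma adjusted p = 0.246 and 0.0533), so that its rise was smaller on the log2 scale than those of Clec4d and Clec4e. Tyrobp, the partner chain of Clec5a, rose by 0.81 and 0.84 (adjusted p = 0.0793 and 0.0641), and the kinase Syk by 0.62 and 0.65 (adjusted p = 0.0953 and 0.0745). Relb, an NF-kB subunit, rose by 1.01 at 6 hours (adjusted p = 0.166).

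Some cytokine genes that this pathway can switch on rose in the ventilated lungs. Of 11 listed genes 10 were tested, and 2 rose and 0 fell at 0 hours, while 6 rose and 1 fell at 6 hours. Compared directly, 5 of the 10 were higher in VILI 6 hours than in VILI 0 hours by limma at an unadjusted P under 0.05, and 0 after adjustment over all genes. Il1b rose by 3.14 at 0 hours and 2.88 at 6 hours (limma adjusted p = 0.0757 and 0.0733), from 3.27 to 4.95 FPKM in control to 19.65 to 82.7 and 14.0 to 83.4. Cxcl2, a ligand of the neutrophil receptor Cxcr2, held 2.30, 2.88 and 150.1 FPKM in the VILI 6 hours libraries and 0.0463 to 0.122 in control (5.9, adjusted p = 0.0878). Il6 held 0.306, 1.58 and 19.3 FPKM at 6 hours (2.93, adjusted p = 0.194), and Csf3, listed at 0 in every control, held 0, 1.17 and 17.7 (adjusted p = 0.199). Within its group, VILI 6 hours replicate 3 was thus highest for all of these, as it was for each of the 7 members, although for Clec4n through the transcript found in that library alone.

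On the inhibitory side, 3 of 4 genes that act behind receptors of the Siglece kind rose at 0 hours and 2 at 6 hours, with a median of 0.41 and 0.35. Socs3, a feedback inhibitor of cytokine signalling, held 9.82 to 12.2 FPKM in control, 22.7 to 44.7 at 0 hours and 25.5 to 158.7 at 6 hours, a rise of 1.5 and 2.74 (limma adjusted p = 0.23 and 0.0625). The phosphatase Ptpn11 (SHP-2) rose by 0.26 and 0.34 (adjusted p = 0.245 and 0.123). Inpp5d (SHIP-1) rose by 0.57 at 0 hours (adjusted p = 0.158) and differed by 0.36 at 6 hours. The phosphatase Ptpn6 (SHP-1) was not called at either time, at -0.01 and 0.33 (limma adjusted p = 0.992 and 0.361). Of 4 genes listed with Pram1, 1 rose at 0 hours and 2 at 6 hours, and 0 fell. Fyb, a homologous adaptor, rose by 0.5 and 0.56 (adjusted p = 0.117 and 0.0855). Lcp2 (Slp76), a binding partner, rose by 0.99 at 6 hours (adjusted p = 0.13). The values of both genes were below the 3.57 and 3.99 of Pram1 itself.

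Markers of neutrophils, the granulocytes that enter injured lungs first, moved with the members that rose. Of 15 neutrophil markers 13 were tested, and 12 rose at 0 hours and 12 at 6 hours, with a median log2 fold change of 3.06 and 3.66. Their summed level was 68.8 to 78.8 FPKM in control, 610, 1060 and 934 at 0 hours, and 548, 1050 and 2080 at 6 hours. It was led by S100a9 and S100a8, the calprotectin subunits, which rose by 3.84 and 4.08 at 0 hours and 4.31 and 4.3 at 6 hours. Ly6g, the mouse granulocyte marker, was at 0 in 2 control libraries and at 0.436 to 4.61 FPKM in the ventilated ones. Mpo and Elane, granule genes of immature neutrophils, were at or near 0 in every library, the highest value being 0.19 FPKM. In each VILI group replicate 1 had the lowest neutrophil sum, as it had the lowest level of Clec4d, Clec4e, Siglece, Pram1 and Clec5a, and the part of neutrophil number in their rise was not tested.

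Macrophage markers moved less. Of 13 markers of monocytes and interstitial macrophages, led by Fn1 and Plac8, 0 rose and 1 fell at 0 hours and 5 rose and 1 fell at 6 hours, with sums of 237 to 260, 213 to 335 and 300 to 541 FPKM in the 3 groups. Of 12 alveolar macrophage markers, led by Chil3 and Ear2, 7 rose and 0 fell at 0 hours and 2 rose and 1 fell at 6 hours, with sums of 254 to 343, 415 to 479 and 273 to 676. Of 7 dendritic cell markers, led by H2-Eb1 and Zbtb46, 1 fell at 0 hours and 2 fell at 6 hours, with sums of 115 to 128, 100 to 144 and 75.4 to 131. In control H2-Eb1 alone had a mean of 101 FPKM, so this sum rests mostly on that gene. Fn1 had a control mean of 88.3 FPKM within the sum for monocytes and interstitial macrophages. Of 6 T cell markers, led by Cd3e and Cd3g, 0 were called by limma at an unadjusted P under 0.05 at either time, with sums of 17.9 to 23.2, 16.6 to 32.5 and 9.88 to 25.2. Lung epithelial markers, led by Scgb1a1 and Sftpc, summed to 35300 to 51900 FPKM over all libraries, and 1 of 8 rose at 0 hours and 0 were called at 6 hours by limma at an unadjusted P under 0.05. Endothelial markers, led by Cdh5 and Pecam1, summed to 666 to 898 FPKM, and 1 of 5 fell at each time. The part of these cells in the values of the members was not tested.

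**Figure D4:**
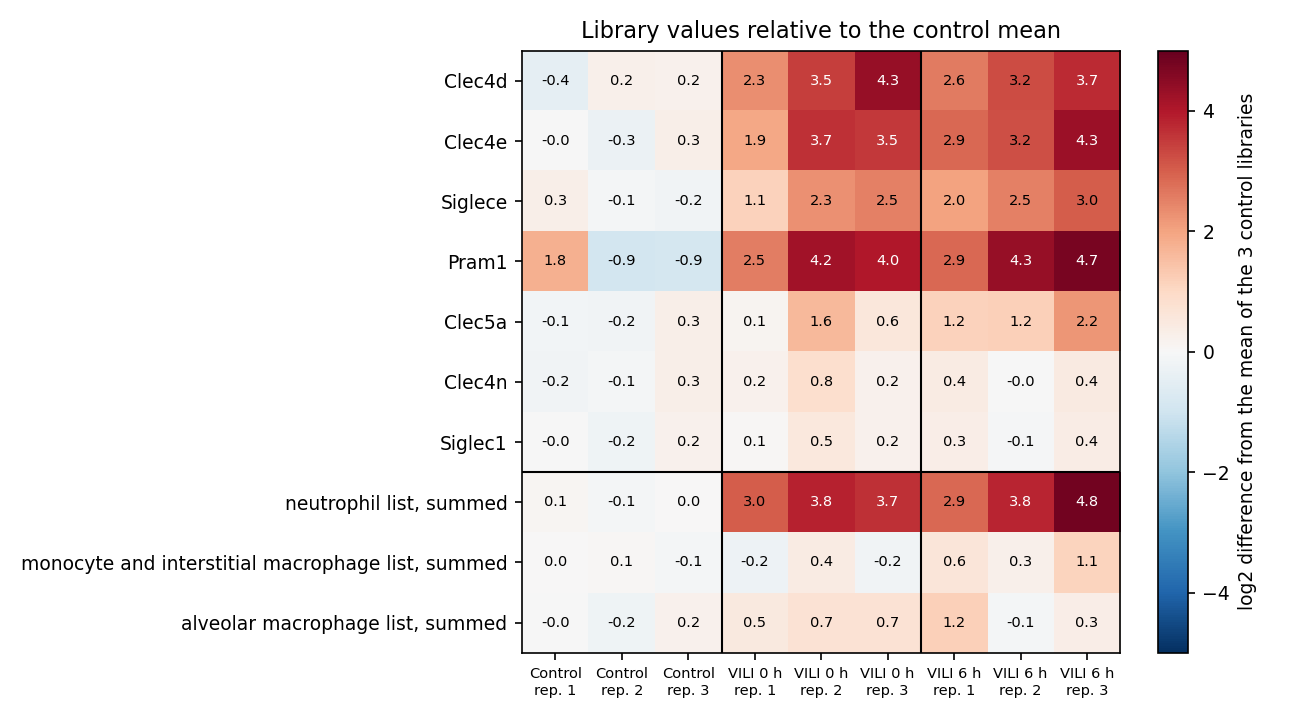
Log2 difference of each library from the mean of the 3 control libraries. The upper rows are the 7 members on the scale of FPKM + 0.1. The lower rows are 3 cell type lists on the scale of their summed FPKM, with nothing added. Red is higher and blue lower than control, and the printed numbers are the values of the cells. The rows of Clec4d, Clec4e, Siglece and Pram1 and the neutrophil row are red in all 6 ventilated libraries, while Clec4n, Siglec1 and the macrophage lists stay closer to control.

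The members also differed in which genes of the whole table had library values most like theirs. Likeness was taken as the root-mean-square difference of the 9 log2 values after centring each gene on its mean, over 14101 genes with a mean of at least 1 FPKM. It is a description, since the 9 libraries share the difference between ventilated and control lungs. Clec4d was closest to the long noncoding RNA Gm43181 (0.31), Cxcr2 (0.38) and the dehydrogenase Dhrs9 (0.38), where the median gene stood at 1.71. Clec4e was closest to Slfn4 (0.34), a Schlafen family gene of myeloid cells, to Cxcr2 (0.36) and to Gm43181 (0.4). Cxcr2, which is on the neutrophil list too, held 1.24 to 1.53 FPKM in control, 10.6 to 23.3 at 0 hours and 11.6 to 27.0 at 6 hours, and Gm43181 held 0.51 to 0.677, 2.86 to 9.57 and 2.76 to 10.95.

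Siglece was closest to the guanine deaminase Gda (0.27), to Gm49339 (0.3) and to the chemokine receptor Ccr1 (0.31), with a median gene at 1.23. Pram1 was closest to Tarm1 (0.56), an activating receptor of myeloid cells, to Mrgpra2b (0.67) and to Cxcr2 (0.72), against a median of 2.08, so that its nearest genes were further from it than those of the other members. Clec5a had other neighbours, namely Ms4a6d (0.18), Ly6c2 (0.19), the Ly6C gene of monocytes, and the interferon-inducible Ifi204 (0.23), against a median of 0.85. Like Clec5a, Ly6c2 was highest in replicate 2 of the VILI 0 hours group (10.86, 22.25 and 10.2 FPKM) and in replicate 3 of the VILI 6 hours group (14.8, 16.9 and 36.0). Clec4n was nearest to Ccdc59 (0.16), Gngt2 (0.17) and Ltc4s (0.17), and Siglec1 to Ltc4s (0.12), the leukotriene C4 synthase, Mrpl33 (0.12) and Sdcbp (0.12), but the median gene was within 0.4 and 0.34 of these flat profiles. Between members, Clec4n and Siglec1 were the closest pair (0.12), followed by Clec4d and Clec4e (0.43) and by Clec4e and Siglece (0.55), and Siglec1 and Pram1 were furthest apart (1.93).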

How the data were processed

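Total RNA of whole lung was depleted of ribosomal RNA and sequenced in 9 libraries, 3 per group, each from 1 mouse, as the labels and the study's methods give it. The authors aligned the reads to GRCm38 with TopHat2 2.0.9 and Bowtie2 2.0.6 and deposited FPKM values per transcript from Cuffdiff 2.1.1, with the versions as in the submitters' processing notes. Transcripts had been assembled with Cufflinks and Scripture, so that part of the loci carry no Ensembl identifier. The labels and the study's methods name different sequencers and library kits, and whether reads were counted by strand is not settled by the sources used here. The mapped read totals given with the study and counts per gene were not used here, so no counting interval was made for an FPKM value.

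Gene identifiers without their version were matched to GENCODE M21, in which 23503 of 23713 Ensembl identifiers were found, and the FPKM values of each gene's transcripts were summed. Genes with a mean of at least 0.1 FPKM were tested on log2(FPKM + 0.1) with limma 3.58.1 (R 4.3.3), in 1 fit of the 3 groups with a trended prior, with 3 pairwise contrasts. P-values were two-sided, and Benjamini-Hochberg adjustment ran over all genes tested. They measure the spread between these 9 mice. No batch is labelled. Levels and within-library ratios were compared with exact two-sided permutation tests (scipy 1.17.1). Summation, figures and motif searches used Python 3.11.15 with numpy 2.4.6, pandas 2.3.3 and matplotlib 3.10.9. The limma script was tested on simulated data first.

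The members and gene lists were chosen with earlier results of these data known, and the 250 kb windows and motif letters were added after the values were seen. From each gene list up to 4 genes past the unadjusted threshold in a comparison with control were named, taken by the size of their change at 6 hours. From each cell type list the counts, the sum and up to 2 genes with the highest mean were named, and for each member the 3 genes with the most similar library values. Ly6g, Mpo, Elane, Gm20507, Clec4b1, Clec4a2, Clec4a4, Mgam, Angptl4, Ptpn6 and Siglecf were named after their values were seen. Promoter sequences are from RefSeq (GRCm38.p6), where 5 of 7 members had an entry. That of Clec5a is not shown because its start lies inside the GENCODE gene. Alternatives were the pseudocount, the filter, median-centred libraries, a fit of only the 6 libraries compared, a replicate block, a prior without a trend, the highest transcript per gene, and leaving out each library. The sum of Pram1 and Gm20507 was added after the values were seen.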

Additional observations from a re-analysis of the deposited data

How the results depend on the processing

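Over 21 log2 fold changes of members and 18 alternatives each (378 values), 366 kept their direction and their side of the threshold of an unadjusted P under 0.05, 0 lost a call, 4 gained one and 8 changed sign. The number of members called was 4 at 0 hours (5 with median-centred libraries, and 4 to 5 when libraries were left out) and 5 at 6 hours in every fit, and from 0 to 1 between the VILI groups when libraries were left out, the 1 being Clec5a without VILI 0 hours replicate 2. The count with an adjusted p under 0.05 was less stable. At 0 hours it went from 2 to 0 with a pseudocount of 1, with no filter, with a prior without a trend and with the highest transcript per gene, to 1 with median-centred libraries, and to 4 with only the 6 libraries compared, and ran from 0 to 4 with 1 library left out. At 6 hours it went from 3 to 0 without a trend and with the highest transcript, and ran from 0 to 5 with 1 library left out. With the replicate number as a block, 4, 5 and 0 members were called in the 3 comparisons and 1, 3 and 0 had an adjusted p under 0.05. The labels give the numbers no shared origin, and same-numbered libraries of control and ventilated mice had deviations that correlated between -0.014 and 0.017, and those of the VILI groups between -0.221 and -0.06, so the numbers were not taken as pairs. All but 1 of the sign changes were between VILI 6 hours and VILI 0 hours with a library left out, where Clec4d ran from -0.7 to 0.3, Clec4e from -0.14 to 0.73, Clec4n from -0.26 to 0.07, Siglec1 from -0.15 to 0.09 and Pram1 from -0.1 to 0.97. The other was Clec4n at 6 hours vs control, at -0.01 with the highest transcript. Summed with Gm20507, an alternative added after the values were seen, Pram1 kept its calls at 1.63 and 2.08. The cause of these changes was not tested.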
